A study of Mus musculus with 8 samples.

Results

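Public TRA chains are T cell receptor alpha chains whose CDR3, the loop that contacts peptide and spans the join of the V and J genes, recurs with an identical amino acid sequence in different animals. Here they are the 328 distinct TRA CDR3 sequences found in 5 or more of 7 mice, out of 21363 distinct sequences, and they were chosen by that count of animals alone. A sequence counted in an animal when a cell barcode with 2 or more TRA transcripts, not marked as a multiplet, carried it, when it ended in F or W, and when the chain was not the TRAV11 with TRAJ18 pair of invariant NKT cells. The 328 sequences lay in 7273 of 45925 such barcodes, and the comparison set was the 16978 sequences found in a single animal.

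The TRA chain is assembled in the thymus by joining 1 of many V genes to 1 of many J genes, with no D gene between them. Nucleases trim the ends of the genes and terminal transferase adds bases that neither gene encodes, so most of the diversity of the chain sits in the CDR3. A chain that needs few added bases, or that many different nucleotide joins encode, can arise again in separate animals. Each TRA chain pairs with a TRB chain that was rearranged earlier, and the pair decides what the T cell recognises.

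The study profiled receptors of CD8+ T cells from the thymus, the spleen and B16 melanoma tumors with the Evercode TCR kit, a split-pool method that reads TRA and TRB transcripts of single cells. Its mice were Pdcd1 fl/fl controls, which carry floxed copies of the gene for PD-1 and no Cre, and CD8-Pdcd1 cKO mice, in which an E8I CD8-Cre removes Pdcd1 from CD8+ T cells after positive selection. The mice bore B16-OVA or B16-F10 tumors or no tumor. A thymus and a spleen table existed for mouse-155A and mouse-155C. The tumor tables, each with a thymus table of the same animal, belonged to mouse-164B, mouse-164C and the 3 animals from mouse-160A to mouse-160C. The labels tied no table to a genotype or a tumor line, so no comparison by genotype was made, and animal and tissue were taken from the names of the tables. The 8 deposited samples are sublibraries, each a mix of all animals.

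Depth differed between the animals, from 1489 kept barcodes in mouse-155C to 13474 in mouse-164C, and between the 14 tables from 619 to 9570. The number of animals in which a sequence can be seen rises with depth, and thinning each animal to 1489 barcodes left 31.4 public sequences on average over 20 draws. None of the 129948 full cell barcodes occurred in more than 1 table. Of the 7273 barcodes with a public sequence, 36 shared all barcode parts but the first with a barcode of another animal that carried the same CDR3, and 325 of the 328 sequences still reached 5 animals without them. All statements below are descriptions. Cells of 1 animal are not replicates, sequences are not independent, and intervals are exact binomial 95% intervals that cover counting error only.

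The nucleotide sequences of the member with the highest median share over the animals are printed as an example of how such a chain is built. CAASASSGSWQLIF was found in all 7 mice in 240 barcodes and had 11 nucleotide versions. In these and all later lines the sequence is the CDR3 read 5′ to 3′, lower case marks bases that the deposited alignment placed against a germline V or J gene, and capitals mark bases placed against neither, called unmatched. A lower-case base can still differ from its gene, which was the case for at least 1 base in 7.74% of the nucleotide versions of public and 6.98% of those of single-animal sequences. Barcode counts of versions cover barcodes with a matched annotation. The first 2 lines give the germline end of TRAV14D-1 (chr14:53093071-53093623, GRCm39, plus strand, a V gene) and the germline start of TRAJ22 (chr14:54434705-54434764, plus strand, a J gene) up to the codon that closes the CDR3.
TRAV14D-1 end: tgtgcagcaagtg
TRAJ22 start: catcttctggcagctggcaactcatcttt
version in 7 animals, 137 barcodes: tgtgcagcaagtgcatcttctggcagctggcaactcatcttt
version in 7 animals, 11 barcodes: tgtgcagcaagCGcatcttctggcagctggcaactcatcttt
version in 6 animals, 13 barcodes: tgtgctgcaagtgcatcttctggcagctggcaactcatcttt
version in 3 animals, 5 barcodes: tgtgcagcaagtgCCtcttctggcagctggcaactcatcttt
version in 2 animals, 2 barcodes: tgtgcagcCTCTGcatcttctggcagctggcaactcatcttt
The version with 137 barcodes is the uncut TRAV14D-1 end followed directly by the uncut TRAJ22 start, with no base lost or added. Not all members had such a version, as 197 of the 328 had any version without unmatched bases. The germline end tgtgcagcaagtg is shared by 6 V genes with different calls in the deposited tables, since the mouse Tra locus holds duplicated V segments, and the copies cannot be told apart from the CDR3. The other versions reached the same protein loop through another V gene or through 2 to 5 unmatched bases.

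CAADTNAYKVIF, found in 6 mice, had the most nucleotide versions of all members, with 13 versions in the 25 of its 33 barcodes that had a matched annotation and 16 V genes called. Of these, 5 of the most widely found are shown because its barcodes were spread thinly over them.
version in 4 animals, 4 barcodes: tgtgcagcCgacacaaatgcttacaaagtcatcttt
version in 3 animals, 4 barcodes: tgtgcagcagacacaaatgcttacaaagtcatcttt
version in 3 animals, 3 barcodes: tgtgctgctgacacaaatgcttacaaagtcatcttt
version in 2 animals, 3 barcodes: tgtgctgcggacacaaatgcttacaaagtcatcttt
version in 2 animals, 2 barcodes: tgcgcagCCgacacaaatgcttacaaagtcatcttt
All of these versions keep the TRAJ30 start apart from at most its first base, and they differ in the V gene and in the codon at the join. The widest of them was found in 4 animals among barcodes with matched annotation. In the version with tgtgctgcggac, 1 lower-case base differs from the germline.

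Chains found in a single animal looked different at the join. The 3 lines below are from the 4 single-animal chains with most barcodes, a choice made after their values were seen, and each has 3 or 4 unmatched bases.
1 animal, TRAV6-5 with TRAJ23, 111 barcodes: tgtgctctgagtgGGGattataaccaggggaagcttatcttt
1 animal, TRAV12-1 with TRAJ49, 81 barcodes: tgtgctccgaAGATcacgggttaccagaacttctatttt
1 animal, TRAV14D-1 with TRAJ30, 21 barcodes: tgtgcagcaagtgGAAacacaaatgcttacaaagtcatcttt

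The public sequences were shorter and held fewer unmatched bases than those of a single animal. The median length was 13 residues for public sequences against 14 for single-animal sequences, and the means were 13.1 ± 1.04 (SD over 328 sequences) and 13.9 ± 1.75 residues (SD over 16978 sequences). Only 15 of the 328 members were 15 residues or longer, 4.57%, against 33.2% of single-animal sequences. The median number of unmatched bases was 1 in public and 4 in single-animal sequences, with means of 1.49 and 4.43. Among single-animal sequences with a matched annotation, 2.84% had more than 20 unmatched bases, and no public sequence did. The bases are counted from the deposited annotation, which was matched for 13300 single-animal and all 328 public sequences.

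The direction was the same in each of the 7 animals. Within 1 animal, the mean number of unmatched bases per nucleotide version ran from 1.28 to 1.49 (median 1.41) for public sequences and from 4.23 to 4.84 (median 4.45) for single-animal sequences, and the ranges did not overlap. The difference was -3.05 ± 0.214 bases (mean ± SD, n = 7 animals). The difference in mean length was -0.884 ± 0.0799 residues (n = 7 animals). Each animal held 177 to 321 of the same 328 public sequences, so the public values of the 7 animals are not independent. The small SDs and separate ranges are therefore in part given by the rule. The share of nucleotide versions with no unmatched base ran from 38.7% to 43.0% in public and from 5.89% to 8.03% in single-animal sequences. Over all animals, 25.5% of the versions of public and 5.03% of those of single-animal sequences had neither an unmatched base nor an aligned base unlike its gene.

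**Figure D1:**
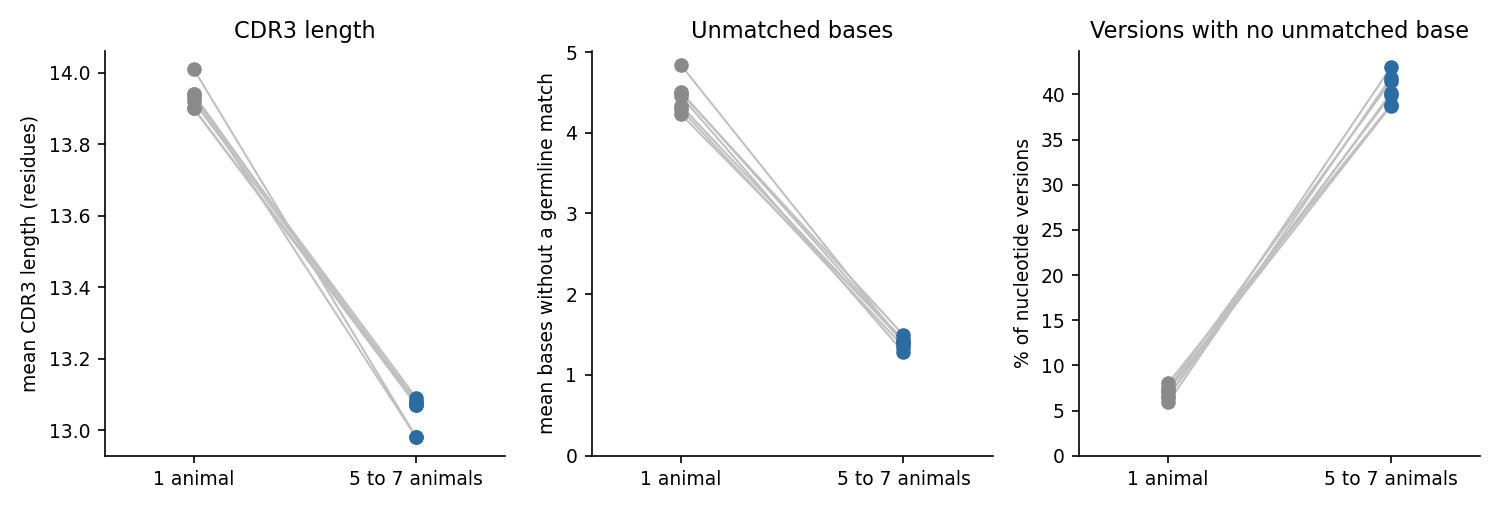
Values within each of the 7 mice (points joined by a line) for the sequences of a single animal (grey) and of 5 to 7 animals (blue), with mean CDR3 length in residues, mean bases placed against neither germline gene, and the share of nucleotide versions with no such base. In every mouse the public sequences were shorter, held 1.28 to 1.49 unmatched bases against 4.23 to 4.84, and more often had none.

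The features changed in steps with the number of animals. Mean unmatched bases per sequence were 4.43, 2.32, 1.95, 1.67, 1.58, 1.35 and 1.27 for sequences of 1 to 7 animals. The share of sequences with at least 1 nucleotide version free of unmatched bases rose from 7.05% in single-animal sequences to 54.8%, 63.6% and 86.7% in those of 5, 6 and 7 animals. This share also rises with the number of versions per sequence, and counted over the versions themselves it was 7.07% against 29.9%, 33.9% and 39.5%. As a measure that does not count unmatched bases in reads, germline V ends and J starts were taken from GRCm39 for the genes called in these data. They were trimmed and joined without additions, and the products were translated. Such joins encoded 206 of the 328 public sequences, 62.8%, against 10.8% of single-animal sequences, and 27 of the 30 sequences found in all 7 animals. The sequences chosen at the edge of the rule followed the same steps, with 57.1% of those of 5 animals and 49.4% of those of 4 animals encoded by a trimmed join.

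**Figure D2:**
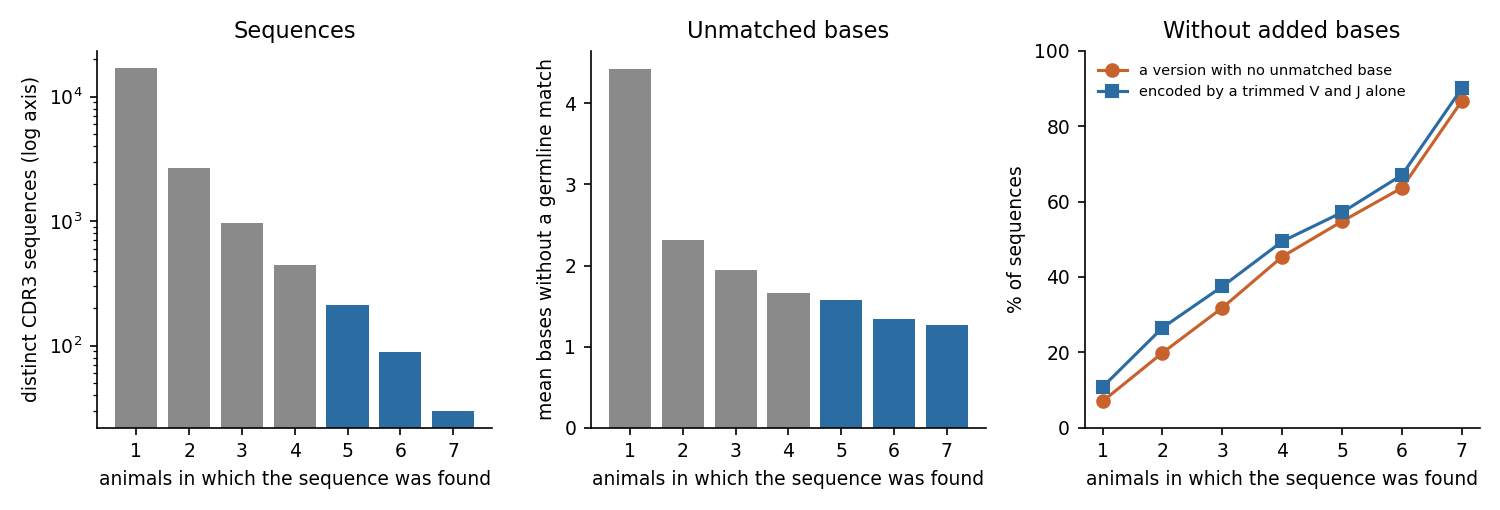
Sequences by the number of mice in which they were found (grey 1 to 4, blue 5 to 7), with their number on a log axis, the mean number of CDR3 bases placed against neither germline gene, and the share of sequences with a version free of such bases or encoded by a trimmed V and J alone. Numbers fell from 16978 to 30 and unmatched bases from 4.43 to 1.27, while both shares rose, to 86.7% and 90.0%.

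The match to the J gene differed more than that to the V gene. Bases were counted as missing beyond the first mismatch, read inward from the edge of the CDR3. A misread base inside a gene thus adds to this count, which is not a direct measure of trimming. The median number of J bases missing from the germline start was 1 in public and 3 in single-animal sequences, and 36.6% against 17.7% of sequences had an uncut J start. The median number of V bases missing was 1 in both sets, with means of 2.00 and 2.05. Of the 44 members that used TRAJ22, 29 had an uncut J start, and their median length was 14 residues against 15 in single-animal sequences with the same J gene. TRAJ22 had the widest gap in median missing J bases, 0 against 5. Among J genes with 5 or more members, the medians were equal for TRAJ33, TRAJ40, TRAJ37 and TRAJ43. The public median was higher for TRAJ42, with 5 against 3, and lower for the rest.

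A small set of V and J genes made up much of the public set. TRAJ22, TRAJ30, TRAJ12, TRAJ23 and TRAJ49 were the 5 most used J genes, with 44, 35, 30, 26 and 17 members. TRAJ22 formed 13.4% of public and 7.16% of single-animal sequences, TRAJ30 10.7% and 3.62%, and TRAJ12 9.15% and 2.71%. These 3 J genes lie within the J cluster at chr14:54434705-54434764, chr14:54427323-54427381 and chr14:54444010-54444067 of GRCm39. TRAJ17, TRAJ4 and TRAJ47 were lower in the public set by the widest margins, with 0.610% against 2.60%, 0.610% against 2.49%, and 0 of 328 members against 1.79%. A count of 0 of 328 was taken to allow a share of up to 0.915%, which is 3 counts of 328 and not an exact binomial bound.

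Each sequence was counted under its most frequent V call. Public sequences had a median of 5 V genes called, and only 21 of the 328 had 1, while the single-animal median was 1. The V shares below are thus not counted alike in the 2 sets, and how much this adds to the differences was not tested. Among V genes, TRAV3-1 led with 46 members, 14.02% of public and 4.62% of single-animal sequences. TRAV12-1, TRAV10, TRAV14D-1 and TRAV8-1 followed with 41, 30, 25 and 20 members. Counted as families, so that duplicated copies fall together, TRAV14 held 19.8% of public and 10.7% of single-animal sequences, and TRAV3 18.0% and 8.14%. TRAV6 went the other way, with 2.44% of public and 13.3% of single-animal sequences. TRAV21-DV12, TRAV9-2 and TRAV6-6 were the genes lowest in the public set relative to single-animal sequences, with 0, 5 and 6 members.

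**Figure D3:**
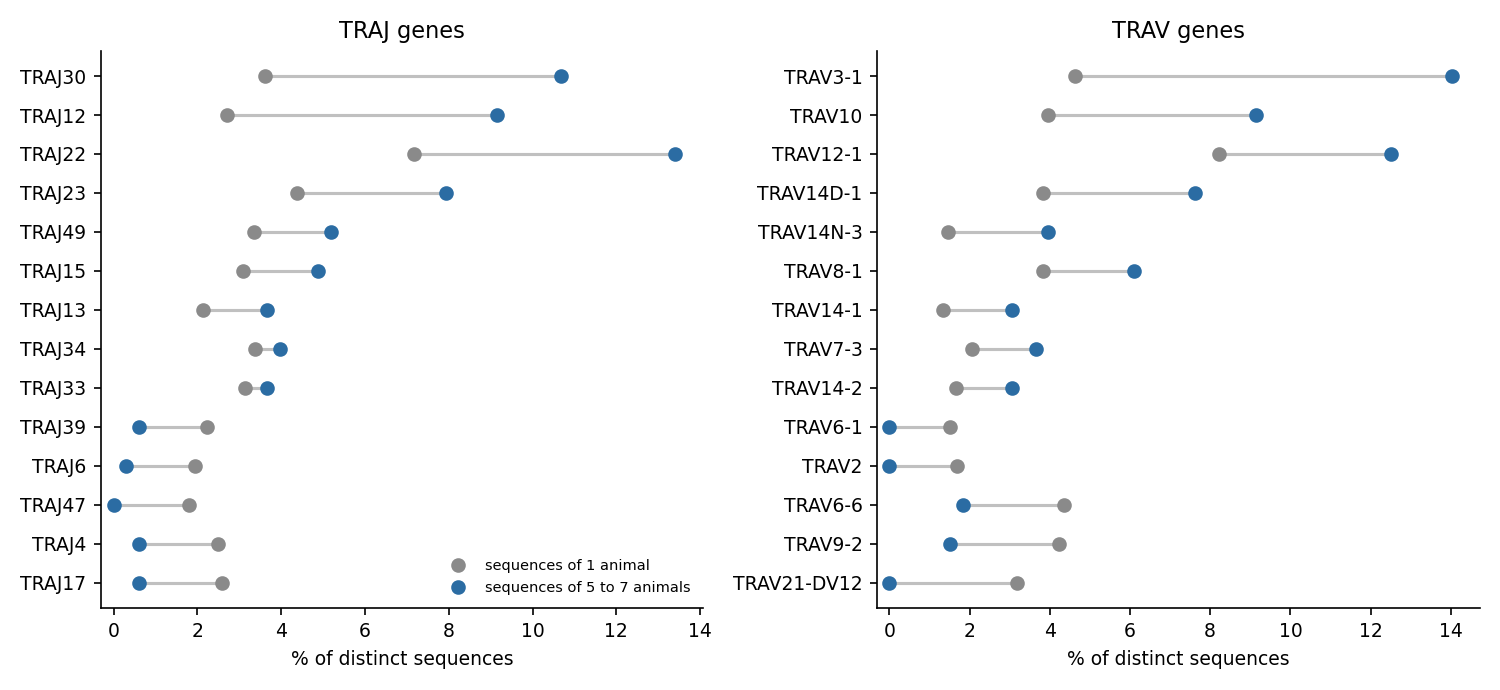
Share of distinct sequences that used each TRAJ (left) or TRAV gene (right) among sequences of a single mouse (grey) and of 5 to 7 mice (blue), for the 9 genes highest and the 5 lowest in the public set relative to the other. TRAJ30, TRAJ12 and TRAJ22 and the gene TRAV3-1 stood furthest to the right of their grey points.

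The shares of the most used genes were also taken within each animal. Taking the sequences found in each animal, TRAJ30 formed 10.6% to 11.3% of the public ones and 2.89% to 5.33% of the single-animal ones, and TRAV3-1 13.8% to 15.6% and 4.21% to 5.48%, with no overlap in either case. The 11 genes TRAJ22, TRAJ30, TRAJ12, TRAJ23, TRAJ49, TRAV3-1, TRAV12-1, TRAV10, TRAV14D-1, TRAV8-1 and TRAV9D-3 were higher in the public sequences in all 7 animals, and TRAJ15 in 6. These genes were picked as the most used ones of the public set, so a higher public share was nearly given by the choice. Public sequences also recur from animal to animal, so their shares are not independent between animals. The most frequent pairs of genes were TRAV3-1 with TRAJ22 and TRAV3-1 with TRAJ30, each with 9 members. No public sequence used TRAV1, the V gene of MAIT cells, which was also called in only 5 of the 16978 single-animal sequences. The TRAV11 with TRAJ18 chains set aside by the rule filled 2231 barcodes, and 3 of their sequences were found in 5 or more animals.

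Most public sequences were made by several nucleotide joins. The median was 4 nucleotide versions, with a range of 1 to 13, against a median of 1 for single-animal sequences. A sequence cannot have more versions than barcodes, and the public ones had a median of 10 barcodes against 1. Among the 134 single-animal sequences with 5 or more barcodes the median was 1 version, and 93.3% of them had 1 version, against 1.83% of public sequences. These 134 had a median of 7.5 barcodes but 2 TRB partners, so many of their barcodes can belong to 1 clone. A public sequence was found in 5 or more animals by the rule, and so can hold more separate joins. That each of these animals made its own join was not tested. The comparison therefore does not match the 2 sets for the number of joins sampled. Counting only versions seen in 2 or more barcodes, which leaves out single misread bases, the public median was 2. The widest version of a member was found in a median of 3 animals, 48 members had 1 nucleotide version in 5 or more animals, and for 23 members no version was seen in more than 1 animal. These counts cover barcodes with matched annotation and can be too low for the members seen in partly annotated tables.

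The 6 members with a single known nucleotide version included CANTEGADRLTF, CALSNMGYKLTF, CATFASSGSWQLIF and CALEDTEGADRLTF, the 4 with most barcodes. Their sequences are given because all their annotated barcodes carried 1 version, seen in 3 or 4 animals each, so none of these versions was itself seen in 5 animals.
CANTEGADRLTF, TRAV12-1 with TRAJ45: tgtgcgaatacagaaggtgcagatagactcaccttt
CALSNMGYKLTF, TRAV12D-1 with TRAJ9: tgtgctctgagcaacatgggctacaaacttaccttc
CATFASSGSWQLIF, TRAV8-1 with TRAJ22: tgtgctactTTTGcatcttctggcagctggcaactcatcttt
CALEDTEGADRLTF, TRAV17 with TRAJ45: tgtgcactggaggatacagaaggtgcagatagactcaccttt
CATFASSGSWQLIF had 4 unmatched bases in all 5 annotated barcodes, which came from 4 animals, and the other 3 sequences had none. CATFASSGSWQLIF was also the only 1 of these 4 that no trimmed join of germline genes encoded.

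Public TRA chains were found with many different TRB chains. The median was 8 TRB partners per member, with a range of 2 to 260. Single-animal sequences had a median of 1 partner and 1 barcode. A member cannot have more partners than barcodes with a TRB chain, and presence in 5 or more animals already needs several cells. The count of partners is thus no trait of public chains by itself. In 268 of the 328 members each barcode with a TRB chain had a different one, and the median was 10 partners per 10 such barcodes. The 328 sequences formed 4046 TRA and TRB pairs in 6204 barcodes, and 3939 of the pairs, 97.4%, were seen in 1 barcode. Only 9 pairs occurred in more than 1 animal. When each such pair was counted in 1 animal alone, 327 of the 328 sequences still reached 5 animals. Barcodes with a public sequence had a TRB chain in 85.3% of cases and those with a single-animal sequence in 84.1%.

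**Figure D4:**
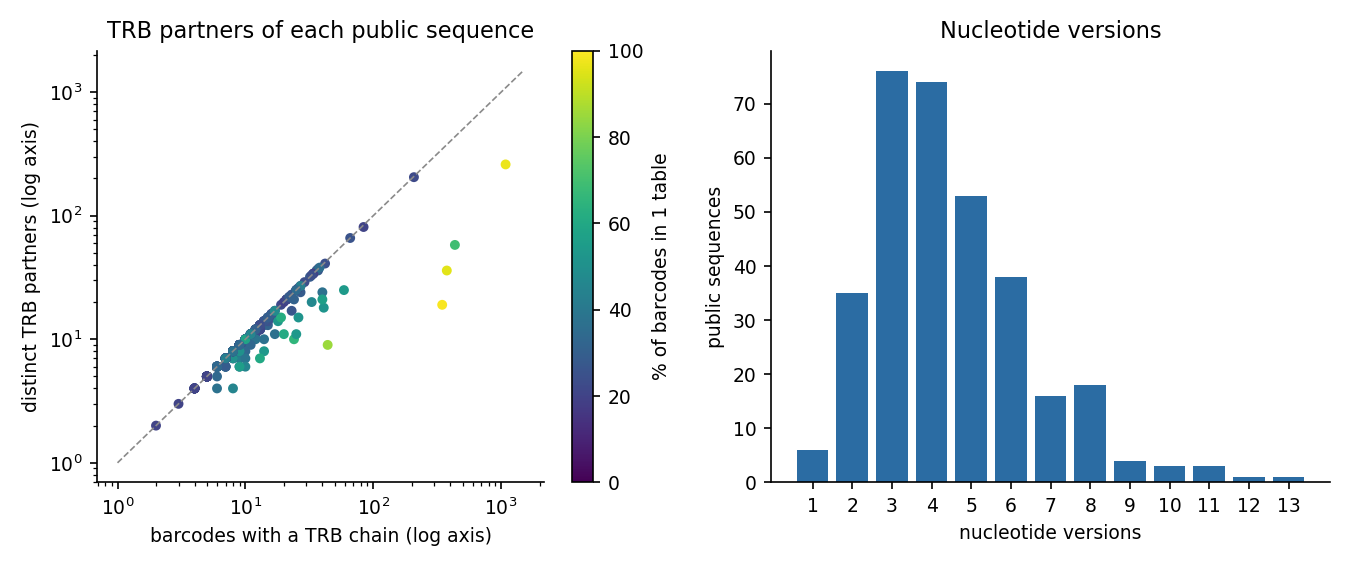
Left, distinct TRB partners of each of the 328 public sequences against its barcodes with a TRB chain, both on log axes, coloured by the share of barcodes in the table that held most of them, with a dashed line where each barcode has its own partner. Right, the number of public sequences with each number of nucleotide versions. Most members lay on the line, 4 members with 346 to 1084 such barcodes fell far below it, and 3 or 4 versions were most frequent.

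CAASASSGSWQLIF was the most frequent public chain in the median animal. Its share of the kept TRA barcodes was 0.382% in the lowest animal, 0.519% in the median and 0.709% in the highest, and no other of the 12 chains below except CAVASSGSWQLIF reached its lowest value in any animal. It was found in all 14 tables, in 1 to 54 barcodes, and its 208 barcodes with a TRB chain held 205 different TRB chains. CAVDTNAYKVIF, a TRAJ30 chain called with 12 V genes, followed with 0.124%, 0.236% and 0.336%, and 84 barcodes with 81 TRB chains. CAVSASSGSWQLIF had 0.105%, 0.127% and 0.238%, with 12 nucleotide versions, of which the uncut join of TRAV3-1 and TRAJ22 was seen in 42 barcodes and all 7 animals.

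The other members of the 12 with the highest median share among those of all 7 animals had medians between 0.0709% and 0.111%. They were a 13-residue chain of TRAV14N-3 with TRAJ13, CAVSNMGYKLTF, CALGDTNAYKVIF, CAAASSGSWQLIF, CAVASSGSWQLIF, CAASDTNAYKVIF, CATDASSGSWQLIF, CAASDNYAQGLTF and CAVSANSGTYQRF. Of the 12, 5 used TRAJ22, 3 used TRAJ30, 2 used TRAJ13 and 1 each used TRAJ9 and TRAJ26. Their ranges over the animals overlapped, so their order is not firm. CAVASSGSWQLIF differed in its spread, from 0.0295% in the lowest to 9.14% in the highest animal.

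In 21 members, at least 50% of the barcodes came from 1 table. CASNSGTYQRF, a sequence singled out after its values were seen, had 40 of 47 barcodes in the mouse-164B tumor. The 4 members with most barcodes in 1 table were each led by a tumor. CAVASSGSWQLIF had 1229 of 1266 barcodes in the mouse-164C tumor, and 790 of the 1061 with a TRB chain there carried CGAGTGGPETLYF. Its other 37 barcodes came from all 7 animals, and their 23 TRB chains all differed from each other and from that of the clone. This member had 260 TRB partners in all, so most of them lay inside the mouse-164C tumor, and their origin was not tested. Of the other 37 barcodes, 4 shared all parts but the first with a barcode of another animal that carried this CDR3. The 37 held 10 nucleotide versions, of which 1 was also seen in the partly annotated tumor table. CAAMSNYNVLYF, a TRAJ21 chain, had 375 of 393 barcodes in the mouse-160C tumor, and 12 different TRB chains elsewhere, none of them the clone's. Of its 18 barcodes elsewhere, 1 shared its later parts with another animal in the same way.

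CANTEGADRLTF had 363 of 367 barcodes in the mouse-164B tumor, where 325 carried the TRB chain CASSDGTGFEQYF. It was seen in 1 barcode in each of 4 other animals, with the tumor's nucleotide sequence in the 3 that had a matched annotation, and 1 of those 4 had a TRB chain. In 2 of the 4 barcodes all parts but the first were shared with a barcode of another animal that carried this CDR3, and without such barcodes it was left in 3 animals. The origin of these barcodes was not tested. In the tumor, 337 of its 363 barcodes also held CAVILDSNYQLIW as a second TRA chain.

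A chain of 14 residues that joined a TRAV8 family gene to TRAJ12 was frequent in the tumors of 3 mice. It had 75 barcodes in the mouse-160A tumor, 62 in the mouse-160B tumor and 342 in the mouse-160C tumor, against 5 in the mouse-164C tumor, 2 in the mouse-164B tumor and 0 to 3 in each thymus or spleen table. The 3 tumor tables stood far above the rest. Of its 152 barcodes outside the mouse-160C tumor, 3 shared all parts but the first with a barcode of another animal that carried this CDR3. Without such barcodes it stayed in 6 animals. Its nucleotide versions are printed because they differ in the last base of the codon at the join.
version in 2 animals, 210 barcodes: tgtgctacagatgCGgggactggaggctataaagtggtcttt
version in 1 animal, 83 barcodes: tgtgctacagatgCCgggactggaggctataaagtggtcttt
version in 3 animals, 77 barcodes: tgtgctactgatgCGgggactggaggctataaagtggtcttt
version in 3 animals, 55 barcodes: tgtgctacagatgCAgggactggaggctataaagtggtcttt
version in 3 animals, 31 barcodes: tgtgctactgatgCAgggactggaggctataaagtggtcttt
version in 3 animals, 29 barcodes: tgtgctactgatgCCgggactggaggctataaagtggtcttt
All 8 versions had 2 unmatched bases between an uncut V end and an uncut TRAJ12 start, except for 1 seen in 1 barcode that also differed within the J part. The V end read tgtgctacagatg, the end of TRAV8D-2, or tgtgctactgatg, the end shared by TRAV8-1, TRAV8-2 and TRAV8N-2. No trimmed join without additions encoded this chain.

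Some TRB partners of this TRAV8 and TRAJ12 chain also resembled each other, 7 of its 58 distinct ones. Of its 435 barcodes with a TRB chain, 289 carried a TRB CDR3 that began with CASSYWG, 66.4%, and all 289 used TRBV4 and were 15 residues long. They comprised 7 TRB sequences and, with the nucleotide versions of the TRA chain, 11 combinations. In the mouse-160C tumor 257 of 308 barcodes with this TRA and a TRB chain had that start, in the mouse-160B tumor 31 of 42, and in the mouse-160A tumor 1 of 74. Among the 38675 barcodes with any other TRA chain and a TRB chain, 48 had it, 0.124%. Of these 48, 21 lay in the mouse-160C tumor, 0.904% of its 2322 such barcodes. The TRA chain and the start of the TRB chain were chosen after their values were seen.

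Few public chains were frequent in more than 1 tumor, though a larger share of them than of all sequences. Of the 312 members present in tumor tables, 67 had 5 or more barcodes in at least 1 of the 5 tumors, 21.5%. In at least 2 tumors it was 17 members, 5.45%, and in at least 3 it was 5, 1.60%. The 5 were the TRAV8 and TRAJ12 chain described above, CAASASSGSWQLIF, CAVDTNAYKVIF, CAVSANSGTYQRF and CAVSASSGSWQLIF. Over all 9917 sequences in tumor tables the counts were 313, 22 and 6, or 3.16%, 0.222% and 0.0605%. Members must occur in several animals by the rule, so these counts describe the set and test nothing.

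The share of TRA barcodes with a public sequence was 15.5% ± 3.57 (mean ± SD, n = 7 animals), from 11.5% in mouse-160B to 21.3% in mouse-160C. The number of members seen ran from 177 in mouse-160A and 179 in mouse-155C, the animals with fewest barcodes, to 321 in mouse-164C. Thymus tables lay between 11.1% and 17.3% with a median of 13.5%. The 2 spleen tables had 15.5% each, and the 5 tumor tables had 8.34% (mouse-160A), 11.9% (mouse-160B), 15.9% (mouse-164B), 21.8% (mouse-164C) and 28.5% (mouse-160C). The tumors thus fell both below and above the range of the thymus tables.

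The order of thymus and second tissue changed with the unit counted. Counting barcodes, the thymus was higher than the second tissue in 2 of 7 animals, mouse-155C and mouse-160A. When each sequence was counted once per table, the thymus was higher in 5 of 7. Leaving out the most frequent public sequence of a table lowers its share by construction, and these values show how much of a share lay in 1 chain. In the mouse-164C tumor the share was 21.8% (interval 21.0% to 22.6%) and 10.3% (9.63% to 10.9%) without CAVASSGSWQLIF. In the mouse-160C tumor it was 28.5% and 17.9% without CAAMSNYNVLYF, and in the mouse-160A tumor 8.34% and 3.63% without the TRAV8 and TRAJ12 chain. Barcodes per public sequence were lower in the thymus than in the second tissue in all 7 animals, from 1.18 to 2.33 in the thymus tables and from 2.86 to 13.6 in the tumor tables. The same order held over all sequences in all 7 animals, with 1.05 to 1.19 barcodes per sequence in the thymus tables and 1.54 to 6.65 in the tumor tables, and nearly equal values in the 2 tables of mouse-155C. In the mouse-160A tumor the public value of 4.57 lay below that over all sequences.

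**Figure D5:**
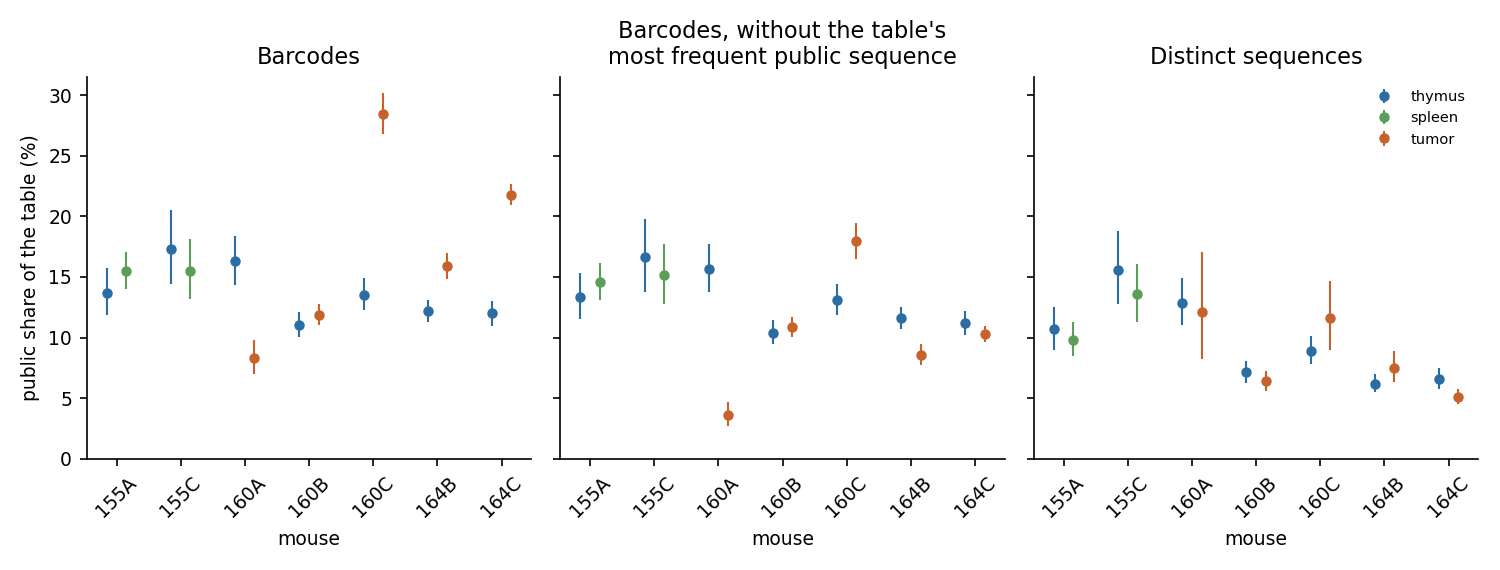
Share of each table that was public, with exact binomial 95% intervals, for thymus, spleen and tumor tables of the 7 mice, as barcodes, as barcodes without the most frequent public sequence of the table, and as distinct sequences. The mouse-160C and mouse-164C tumors stood highest by barcodes at 28.5% and 21.8%, and the distinct-sequence shares of thymus and tumor lay close together.

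The thymus alone held enough of these chains for 119 of the 328 to be found in 5 or more thymus tables, and 9 were found in all 7. A chain that was widely found in 6 animals was also more often found in the animal left out. With each animal left out in turn, 26.8% to 84.0% of the sequences found in 4 or more of the other 6 were present in it, against 1.26% to 11.1% of those found in 1 of the other 6. The lowest pair of values belonged to the shallow mouse-155C and mouse-160A and the highest to the deep mouse-164C, with 84.0% (interval 79.97% to 87.6%) against 11.1% (10.6% to 11.7%).

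At the edge of the rule, the members of 5 animals with fewest barcodes were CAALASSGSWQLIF, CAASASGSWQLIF and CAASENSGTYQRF, with 5 barcodes each. The sequences of 4 animals with most barcodes were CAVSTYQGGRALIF with 232, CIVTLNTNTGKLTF with 163 and a 14-residue chain of TRAV14N-3 with TRAJ30 with 146. Members of 5 animals had a median of 9 barcodes and those just outside, in 4 animals, a median of 6.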

How the data were processed

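The authors isolated CD8+ T cells with magnetic kits, prepared Evercode TCR libraries and deposited, per animal and tissue, tables of cell barcodes with TRA and TRB calls and transcript counts, and annotation tables, both against GRCm39 per the labels. Chains were assembled, annotated and called with the Parse Biosciences TCR pipeline, whose version was not found in the sources used here. Clonotype frequency tables were not used. Members and lists were chosen with earlier results of these data known.

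From the 129948 barcodes with a TRA chain, 107882 were not marked as multiplets, 48600 of those had 2 or more TRA transcripts, 48156 a CDR3 ending in F or W, and 45925 remained without TRAV11 with TRAJ18. Nucleotide CDR3s came from the annotation row with the barcode, V, J and CDR3 of the chain. The annotation held only part of 3 tables, with 29.9% of kept barcodes in the mouse-164C tumor, 39.3% in the mouse-164B thymus and 92.0% in the mouse-160B thymus. Unmatched bases are CDR3 positions without a V or J base in the germline alignment, and aligned bases unlike their gene were counted apart. Germline V ends and J starts of the called genes were read from GRCm39 with GENCODE vM39. The edges of the CDR3 in them were placed by the bases most frequent in the reads. The count of unmatched bases from them equalled that of the annotation in 94.1% of versions. The suffix of V and J calls in the files (TRAV12-1_1) is left off. A sequence was given its most frequent V and J call, and ties went to the first name in alphabetical order.

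CDR3s of 15 or more residues and some shorter ones are described by V, J and length. Named sequences were those of all 7 animals with the highest median share, those with most nucleotide versions, those with a single version, those with most barcodes in 1 table, and those at the edge of the rule. No test was run, because tables carry no group in the labels. Alternatives varied the number of animals, transcripts, multiplets, chains, depth, animals and tables. Counting was checked on simulated chains. Python 3.11.15, pandas 2.3.3 and scipy 1.17.1 were used.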

Additional observations from a re-analysis of the deposited data

Results flagged for a closer look

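Barcodes with a public sequence had a second TRA chain in 43.5% of cases in mouse-164B, far from the other 6 animals at 13.6% to 26.1%. In the mouse-164B tumor, 339 of the 363 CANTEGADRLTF barcodes had a second chain, and without this sequence the share in mouse-164B was 24.9%. This was 1 of 10 groups examined for a sample that stands apart, and chance alone marks about 1 group in 20.

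Second TRA chains take no part in the choice of members. Of the 16613 barcodes with a second TRA chain, 9.90% held a public sequence as that second chain, which covered 270 of the 328 members. As first chains, public sequences lay in 15.8% of the 45925 kept barcodes, which is a different set of barcodes.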

How the results depend on the processing

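In 92 of 143 recomputed values a count or median count stayed within 1.5 times the reported one, or another value within 1 SD over the animals, and no difference between public and single-animal sequences changed its sign. The number of public sequences, 328 as reported, was 773 at 4 or more animals, 118 at 6 or more, 1185 with 1 or more transcripts, 138 with 3 or more, 204 with 1 TRA chain only, 449 with multiplets kept, 232 with a TRB chain only, 31.4 with each animal thinned to the shallowest, 149 without the partly annotated tables, 119 from thymus tables only, and 56 with the nucleotide sequence as the unit. Without 1 animal each it ran from 125 (without mouse-164C) to 242 (without mouse-155C), and it fell more than 1.5 times also without mouse-155A, mouse-160B, mouse-160C or mouse-164B. The difference in median length of -1 residue was -0.847 with means and -0.607 within each TRAJ gene, and -1 without any 1 animal. The difference in unmatched bases of -3 was -2.5 at 4 or more animals or by a match to the reference genome, -2.58 within each TRAJ gene, -2.23 with thinning, and -2 with 1 or more or 3 or more transcripts, with a TRB chain only, with 1 TRA chain only, without the partly annotated tables, in thymus tables only, or against single-animal sequences with 2 or more barcodes. Without 1 animal each it was -3 to -2. The median public share over animals of 14.8% was 23.6% at 4 or more and 8.59% at 6 or more animals, 35.3% and 11.2% with 1 or more and 3 or more transcripts, 4.02% with thinning, 8.54% without the partly annotated tables and 7.99% in thymus tables only, and 8.59% to 13.4% without 1 animal each. The count of 2 animals with a higher share in thymus was 1 at 4 or more animals and 1 without the partly annotated tables, 3 at 6 or more animals, with 3 or more transcripts, with a TRB chain only, with 1 TRA chain only or without barcodes that share their later parts with another animal, and, in choices added after seeing the data, 5 with each sequence counted once per table and 4 without the most frequent public sequence, which can only lower a share. It ran from 1 to 3 without 1 animal each, at 1 without mouse-160A. The median of 4 nucleotide versions was 2 for versions of 2 or more barcodes, also added after seeing the data, and 4 to 5 without 1 animal each. The median of 8 TRB partners was 13 at 6 or more animals and 9 to 10 without 1 animal each. The cause of these changes was not tested. Depth limits which chains can be seen in an animal, so a sequence counted here in 1 animal may be present but unseen in others.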
